A study of Saccharomyces cerevisiae with 10 samples.

Results

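The genes described here encode the Hsp70 chaperones of Saccharomyces cerevisiae and their Hsp110 relatives: SSA1, SSA2, SSA3, SSA4, SSB1, SSB2, SSC1, KAR2, SSE1 and SSE2. They were found by gene symbol in the annotation of an Affymetrix yeast expression array, and the probe set with the highest mean log2 intensity stood for each gene. All 10 genes were measured, out of 5449 genes in all, on 11 of the 5716 probe sets. Only SSB1 had a second probe set.

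The arrays followed a pool of barcoded diploid strains of the S288c background through a shift from dextrose to ethanol as carbon source. Each strain of the pool carries a pair of proteins tagged with fragments of a methotrexate-resistant dihydrofolate reductase, so the culture is a mixture of tagged strains and not an isogenic line. RNA came from cells at 0 h and at 0.5, 1, 4 and 12 h of incubation in yeast nitrogen base with ethanol and methotrexate. There were 2 arrays at each time and 10 in all. Although labelled as biological replicates, the 2 arrays of each time are not said to come from separate cultures, so p-values measure only the spread between these arrays.

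The design text places methotrexate in the dextrose pre-culture, whereas the methods describe an overnight culture without it. If the methods hold, the 0 h arrays and the later arrays differ in the drug as well as in carbon source, and the effects of both cannot be told apart. There was no culture kept in dextrose for the same hours, so time and carbon source cannot be told apart either. The values are RMA intensities scaled over each array as a whole, in which a change in the total mRNA of the cells is not visible, and fewer cells of a kind cannot be told apart from less RNA per cell.

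Array medians lay between 316 and 351. Both ends of this range were 12 h arrays, with 351 for replicate 1 and 316 for replicate 2. The 2 arrays of a time correlated at r = 0.9775 to 0.9856 over probe sets, lowest at 12 h. Carbon source genes changed with the labelled shift. HXT1, a glucose transporter, averaged 293 at 0.5 h against 2908 at 0 h, and ADH2, the alcohol dehydrogenase of ethanol use, averaged 10287 at 0.5 h against 54.9 at 0 h. The 10 haploid-specific genes examined, whose transcripts should be low in diploids, had mean intensities of 17.7 to 265 at 0 h, above those of 4.44% to 41.3% of all genes. Levels of different probe sets cannot be compared closely, so this does not settle the ploidy of the cells.

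Hsp70 proteins bind short hydrophobic stretches of unfolded or newly made polypeptides and release them in a cycle driven by ATP. J-domain proteins bring substrate and stimulate ATP hydrolysis, and nucleotide exchange factors, Hsp110 proteins among them, reopen the chaperone by removing ADP. Yeast divides the work by compartment: the Ssa proteins act in the cytosol and nucleus, the Ssb proteins sit at the ribosome where polypeptides emerge, Ssc1 pulls proteins into the mitochondrial matrix and folds them there, and Kar2 does the same at the endoplasmic reticulum (ER). SSA1 and SSA2 are near-identical paralogs, as are SSB1 and SSB2, whereas SSA3 and SSA4 are known as stress-inducible copies.

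The shift from dextrose to ethanol did not move this family as a block. Within 0.5 h, SSA1, SSA3, SSC1, SSE2 and KAR2 rose, and SSA2, SSB1 and SSB2 fell. SSA1 was 4.35-fold higher at 0.5 h than at 0 h and still 3.06-fold higher at 12 h. SSB1 and SSB2 were 3.15-fold and 3.16-fold lower at 0.5 h and had returned close to their 0 h levels by 12 h. This value of SSB1 is from a probe set marked as shared with other sequences. With its unshared set the log2 change was -2.50 at 0.5 h and -0.33 at 12 h (limma adjusted p = 0.279 at 12 h). Intensity on every array and the fitted changes are drawn in the plots of the time courses and of the changes against 0 h.

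**Figure D1:**
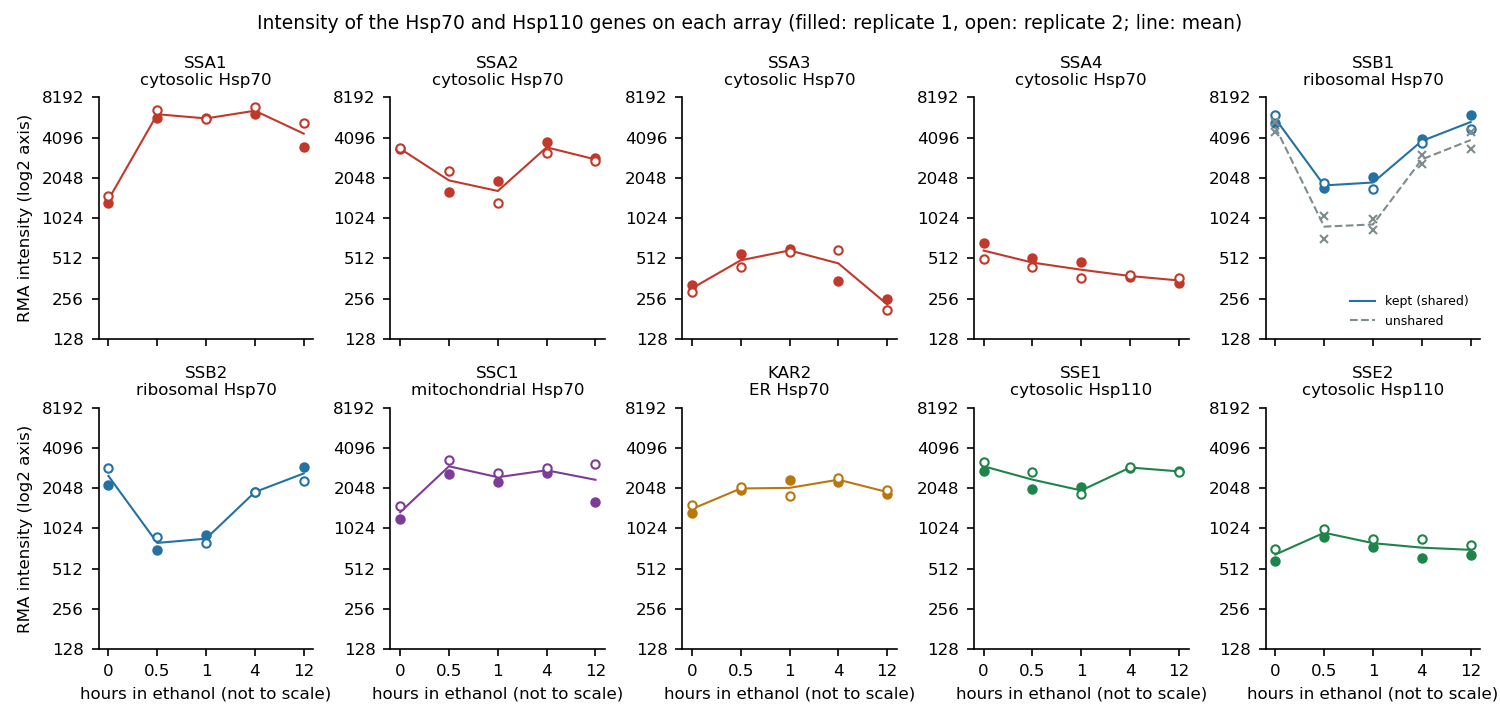
RMA intensity (log2 axis) of each of the 10 genes against hours in ethanol (not to scale), with replicate 1 filled, replicate 2 open and a line through the mean of the 2 arrays; the grey crosses are the second probe set of SSB1. SSA1 is at 3508 or higher on all 8 later arrays, against 1320 and 1496 at 0 h, and SSB1 and SSB2 dip at 0.5 and 1 h, while the heights of different genes cannot be compared because their probes differ.

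Counts were read from a single limma fit over all 5449 genes, in which a gene was called at a Benjamini-Hochberg adjusted p under 0.05. At 0.5 h against 0 h, 5 of the 10 genes were called higher, where 30.1% of all genes were, and 3 lower, where 32.7% of all genes were. At 1 h the counts were 4 higher and 4 lower, beside 29.3% and 33.4% of all genes. At 4 h they were 3 higher and 2 lower, beside 19.4% and 23.2%.

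By 12 h against 0 h only SSA1 was called higher and only SSA4 lower, where 21.4% of all genes were called higher and 22.0% lower. Between 1 h and 4 h, 4 of the 10 genes were called higher at 4 h and 0 lower, beside 14.5% and 12.8% of all genes. Between 4 h and 12 h, 0 were called higher and 1 lower at 12 h, beside 6.83% and 4.50%. With 10 members these shares do not set the family apart from other genes, and the results lie in the single genes and in how paralogs differed.

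**Figure D2:**
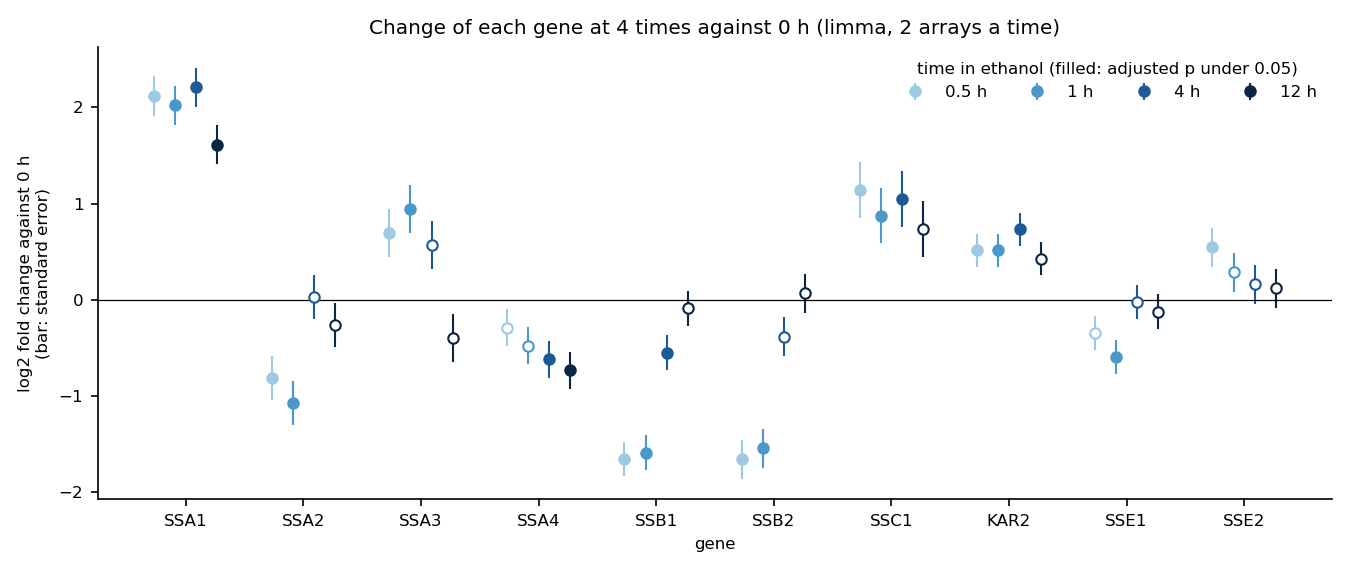
Log2 fold change against 0 h from limma for each gene at 0.5, 1, 4 and 12 h (light to dark), with bars of 1 standard error and filled points for an adjusted p under 0.05. SSA1 stands between 1.61 and 2.21 at every time, and SSA4 goes down to -0.73 at 12 h. SSB1, on its shared probe set, and SSB2 fall to about -1.66 at 0.5 h and end near 0.

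SSA1, the cytosolic Hsp70 that is made in unstressed cells and is raised further by heat, had intensities of 1320 and 1496 at 0 h, 5695 and 6561 at 0.5 h, 5759 and 5648 at 1 h, 6114 and 6907 at 4 h, and 3508 and 5271 at 12 h. No later array came near the 0 h arrays, and the lowest of the 8 was 12 h replicate 1. The log2 change against 0 h was 2.12 ± 0.21 (SE) at 0.5 h (limma adjusted p = 2.78e-05), just past the 95th percentile of all genes, which was 2.09. It was 2.02 at 1 h (adjusted p = 3.87e-05), 2.21 at 4 h (adjusted p = 5.23e-05) and 1.61 at 12 h (adjusted p = 0.000252). Its level changed by 0.19 at 4 h against 1 h (adjusted p = 0.53). The drop between 4 h and 12 h, -0.60 ± 0.21, did not pass in limma (adjusted p = 0.0956), but it did without 12 h replicate 2 (-0.89, adjusted p = 0.0202) and in 1 of 9 other settings (0.0366).

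SSA2, the near-identical partner that is expressed constitutively, went the other way at first. Its intensities were 3360 and 3412 at 0 h, 1613 and 2307 at 0.5 h, 1940 and 1329 at 1 h, 3788 and 3144 at 4 h, and 2896 and 2733 at 12 h. The arrays at 0.5 and 1 h all lay below both arrays of 0 h, and those at 4 h lay on either side of them. SSA2 fell by 0.81 ± 0.23 on the log2 scale at 0.5 h (limma adjusted p = 0.0116) and by 1.08 ± 0.23 at 1 h (adjusted p = 0.00264), then rose 2.15-fold at 4 h against 1 h (adjusted p = 0.00841). Its change against 0 h was 0.03 at 4 h (adjusted p = 0.934) and -0.27 at 12 h (adjusted p = 0.376). Calls at 2 contrasts rested on single arrays: the one at 0.5 h was lost without 0.5 h replicate 1 (adjusted p = 0.0995), and the rise from 1 h to 4 h without 1 h replicate 2 (adjusted p = 0.074) or 4 h replicate 1 (adjusted p = 0.0716).

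Because both probe sets were read from the same arrays, the paralogs can be set against each other as a change in their log2 ratio. Relative to 0 h, SSA1 over SSA2 was 2.93 higher at 0.5 h and 3.10 higher at 1 h, and the excess was still 2.18 at 4 h and 1.88 at 12 h. The lowest of the 8 later arrays had a log2 ratio of 0.28 and the highest 2.09, against -1.35 and -1.19 on the 2 arrays of 0 h. The mean of the later arrays exceeded that of the 0 h arrays by 2.52 (two-sided exact permutation test over 45 splits, p = 0.0222, the smallest it allows, and 0.0889 after adjustment over the 4 paralog pairs). The 2 groups of arrays did not overlap, but with 4 pairs adjusted together a single pair at the smallest p cannot pass, and 2 arrays against 2 could not go below 0.333. The retained probe sets of SSA1 and SSA2 do not carry the mark that Affymetrix gives to shared sets. How far each also bound the transcript of the other was not tested.

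SSA3, known as a stress-inducible cytosolic Hsp70 of cells that leave fermentation, rose for a time. It had 325 and 285 at 0 h, 552 and 438 at 0.5 h, 603 and 570 at 1 h, 346 and 593 at 4 h, and 254 and 210 at 12 h. The arrays at 0.5 and 1 h were above both 0 h arrays, the 4 h arrays were far apart, and both 12 h arrays were below 0 h. The log2 change was 0.69 ± 0.25 at 0.5 h (limma adjusted p = 0.0354), 0.95 at 1 h (adjusted p = 0.00844) and 0.57 at 4 h (adjusted p = 0.0952). At 12 h it was -0.40 against 0 h (adjusted p = 0.227), while SSA3 fell by 0.97 ± 0.25 at 12 h against 4 h (adjusted p = 0.0356).

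Several calls of SSA3 rested on single arrays. The one at 0.5 h was lost without either 0 h array (adjusted p = 0.0667 without replicate 1, 0.148 without replicate 2) and without 0.5 h replicate 1 (0.184), and the one at 1 h without 0 h replicate 2 (0.0528). The fall between 4 h and 12 h was lost in 7 of 10 fits that left out 1 array, including those without 4 h replicate 2 (log2 change -0.585, adjusted p = 0.234), 12 h replicate 1 (0.086) and 12 h replicate 2 (0.114), both 0 h arrays (0.0504 each) and both 1 h arrays (0.0537 each), and when only the arrays of both times were fitted (0.106). Without 4 h replicate 1 the rise at 4 h against 0 h passed (0.96, adjusted p = 0.0136).

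SSA4, the Ssa gene best known for its strong induction by heat, did not rise at any time. Its intensities were 661 and 509 at 0 h, 513 and 439 at 0.5 h, 478 and 363 at 1 h, 373 and 382 at 4 h, and 336 and 363 at 12 h. The arrays from 1 h onwards were all below both 0 h arrays. SSA4 changed by -0.29 at 0.5 h (limma adjusted p = 0.216) and -0.48 at 1 h (adjusted p = 0.055), and it fell by 0.62 ± 0.19 at 4 h (adjusted p = 0.0292) and by 0.73 ± 0.19 at 12 h (adjusted p = 0.0135). The call at 4 h was lost without 0 h replicate 1 (adjusted p = 0.173), 4 h replicate 1 (0.0998) or 4 h replicate 2 (0.103), and the one at 12 h without 0 h replicate 1 (0.094) or 12 h replicate 1 (0.0573). The value at 1 h passed without 0 h replicate 2 (0.0342) or 1 h replicate 1 (0.031) and in 4 of 9 other settings (0.0302 to 0.0471).

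On the log2 scale and relative to 0 h, SSA3 over SSA4 was 0.98 higher at 0.5 h and 1.42 higher at 1 h, and the excess was 1.19 at 4 h and 0.33 at 12 h. The later arrays averaged 0.98 above those of 0 h, with 0.05 at the later times and -0.93 at 0 h as mean log2 ratios (exact permutation p = 0.0444, adjusted 0.0889). All 8 later arrays, from -0.79 to 0.65, stood above both 0 h arrays, which were at -1.02 and -0.84. The plot of paralog ratios shows how the pairs part.

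**Figure D3:**
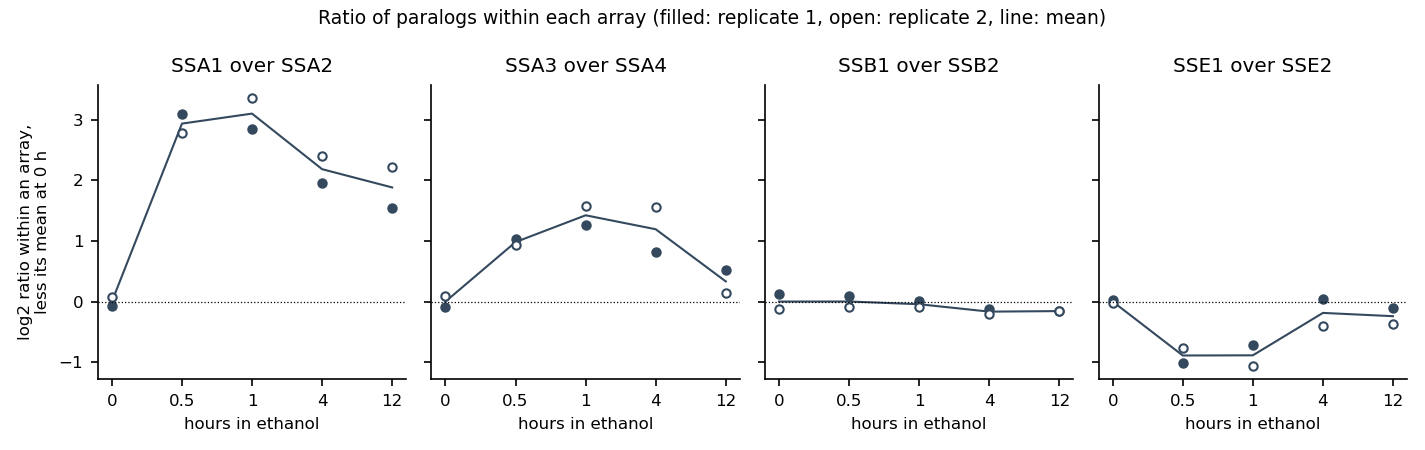
Log2 ratio of each paralog pair within an array, less its mean at 0 h, against hours in ethanol, with replicate 1 filled, replicate 2 open and a line through the mean. SSA1 over SSA2 climbs to 3.10 at 1 h, SSA3 over SSA4 to 1.42 at 1 h, and SSE1 over SSE2 dips to -0.89 at 0.5 and 1 h. SSB1 over SSB2, with SSB1 on its shared probe set, stays within 0.21 of 0.

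SSB1 and SSB2 encode the Hsp70s bound to translating ribosomes, and unlike the Ssa genes they are known for expression that follows that of ribosomal proteins. SSB1 had intensities of 5314 and 6030 at 0 h, 1707 and 1887 at 0.5 h, 2080 and 1702 at 1 h, 4001 and 3734 at 4 h, and 6004 and 4720 at 12 h. SSB2 had 2161 and 2891 at 0 h, 710 and 884 at 0.5 h, 914 and 802 at 1 h, 1926 and 1904 at 4 h, and 2945 and 2333 at 12 h. Both genes were low on all 4 arrays of 0.5 and 1 h and in between at 4 h, and at 12 h their arrays overlapped those of 0 h.

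The fall at 0.5 h was 1.66 on the log2 scale for each, with limma adjusted p = 5.06e-05 for SSB1 and 9.71e-05 for SSB2. At 1 h the changes were -1.59 (adjusted p = 7.1e-05) and -1.55 (adjusted p = 0.000157). Between 1 h and 4 h, SSB1 rose 2.05-fold (adjusted p = 0.00404) and SSB2 2.24-fold (adjusted p = 0.00409). These 6 calls were kept in all 10 fits that left out 1 array.

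At 4 h SSB1 was still lower than at 0 h, by 0.55 on the log2 scale (limma adjusted p = 0.0345), and this call was lost without either array of 0 h (adjusted p = 0.062 and 0.163) or of 4 h (0.0819 and 0.159). SSB2 changed by -0.38 at 4 h (adjusted p = 0.155). At 12 h the changes against 0 h were -0.09 for SSB1 and 0.07 for SSB2 (adjusted p = 0.728 and 0.815), with standard errors of 0.18 and 0.20.

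The retained probe set of SSB1 is of the kind marked as shared with other sequences, and SSB2 is its near-identical paralog, so part of its signal may belong to SSB2, which was not tested. The other probe set of SSB1 carries no such mark. It had 4488 and 5347 at 0 h, 712 and 1056 at 0.5 h, 1006 and 830 at 1 h, 3020 and 2614 at 4 h, and 4498 and 3356 at 12 h. With it, SSB1 fell by 2.50 on the log2 scale at 0.5 h (limma adjusted p = 2.3e-05) and by 2.42 at 1 h, against 1.66 and 1.59 with the shared set, and its change at 12 h was -0.33 (adjusted p = 0.279). The ratio of SSB1 over SSB2 depended on this choice. Its later mean differed from 0 h by -0.09 with the shared set (exact permutation p = 0.289, adjusted 0.289) and by -0.63 with the unshared one (adjusted 0.0444).

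The partners of Ssb at the ribosome form the ribosome-associated complex, made of Ssz1, an atypical Hsp70, and Zuo1, a J-domain protein. SSZ1 had a mean intensity of 1111 at 0 h, of 545 at 0.5 h and 567 at 1 h, and of 1056 at 4 h and 1208 at 12 h. SSZ1 fell by 1.02 ± 0.17 on the log2 scale at 0.5 h (limma adjusted p = 0.000654), and ZUO1 by 1.27 ± 0.19 (adjusted p = 0.000306). ZUO1 averaged 1506 at 0 h, with 623 and 634 at 0.5 and 1 h, then 1177 at 4 h and 1737 at 12 h. Both rose again at 4 h against 1 h, by 0.90 and 0.88.

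Of the 5 ribosome-associated chaperone genes listed, which also include the nascent polypeptide-associated complex, 0 rose and 3 fell at 0.5 h. Their median log2 change was -0.76, beside -0.05 over all genes. At that time 30.1% of all genes were called higher and 32.7% lower, and with 5 genes these shares do not set the list apart. The third to fall was BTT1, a minor subunit of the nascent polypeptide-associated complex (-0.76). EGD1 and EGD2, its main subunits, changed by -0.25 and -0.48 (adjusted p = 0.315 and 0.0569). Genes matched by the name pattern of cytosolic ribosomal proteins numbered 128, including RPP1, which encodes a subunit of RNase P. Of these, 123 fell at 0.5 h and 113 rose at 4 h against 1 h, with medians of -1.30 and 0.74. At 12 h against 0 h 4 were higher and 4 lower. Over all genes 32.7% were called lower at 0.5 h, 14.5% higher at 4 h against 1 h, and 21.4% higher and 22.0% lower at 12 h. The largest falls at 0.5 h among the 128 were those of RPL22B (-2.99), RPS26B (-2.60) and RPL8A (-2.52).

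SSC1, the Hsp70 of the mitochondrial matrix and engine of the import motor, rose. Its intensities were 1204 and 1502 at 0 h, 2629 and 3338 at 0.5 h, 2268 and 2679 at 1 h, 2663 and 2908 at 4 h, and 1607 and 3124 at 12 h. All 8 later arrays were above both 0 h arrays, but 12 h replicate 1 was close to them. SSC1 was 2.20-fold higher at 0.5 h (log2 1.14 ± 0.29, limma adjusted p = 0.0066), 1.83-fold at 1 h (adjusted p = 0.0239) and 2.07-fold at 4 h (adjusted p = 0.0167). At 12 h the log2 change was 0.74 (adjusted p = 0.0647), and without 12 h replicate 1 it was 1.22 (adjusted p = 0.00466).

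The call of SSC1 at 0.5 h was kept whichever array was left out. The others were lost without 0 h replicate 1 (adjusted p = 0.127 at 1 h and 0.0958 at 4 h), without 1 h replicate 2 (0.116) and without 4 h replicate 2 (0.0808). At 12 h the change passed in 2 of 9 other settings (0.0136 and 0.0476).

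Of 11 genes listed as partners of Ssc1, in import, folding and nucleotide exchange, 6 rose and 1 fell at 0.5 h. At 1 h 6 rose and 2 fell, at 4 h 8 rose and 0 fell, and at 12 h 7 rose and 0 fell. Over all genes 30.1%, 29.3%, 19.4% and 21.4% were called higher at these times, and 32.7%, 33.4%, 23.2% and 22.0% lower. The median log2 change of the 11 was 0.60 at 0.5 h and 0.77 at 12 h, beside -0.05 over all genes at both times. PAM17, a subunit of the import motor, rose by 1.45 at 0.5 h (limma adjusted p = 4.77e-05). HSP60, the matrix chaperonin, averaged 4916 at 0.5 h against 1954 at 0 h (log2 change 1.33, adjusted p = 0.000102), and was 1.51 higher at 12 h. MDJ1, the J-domain partner of Ssc1, rose by 0.77 at 0.5 h, and MGE1, its nucleotide exchange factor, by 0.72 at 0.5 h and 1.10 at 12 h. PAM18, the J-domain protein of the motor, fell by 0.53 at 0.5 h (adjusted p = 0.0171). TIM44, which tethers Ssc1 to the import channel, changed by -0.35 at 0.5 h without passing and fell by 0.57 at 1 h (adjusted p = 0.0108).

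KAR2, the Hsp70 of the ER lumen known as BiP in mammals, rose modestly. It had 1332 and 1526 at 0 h, 1981 and 2091 at 0.5 h, 2338 and 1778 at 1 h, 2286 and 2453 at 4 h, and 1848 and 1984 at 12 h. Every later array was above both 0 h arrays. The log2 change was 0.51 ± 0.17 at 0.5 h (limma adjusted p = 0.026), 0.52 at 1 h (adjusted p = 0.0255), 0.73 at 4 h (adjusted p = 0.00835) and 0.43 at 12 h (adjusted p = 0.0735).

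None of the 3 calls of KAR2 was kept in every fit that left out 1 array. The call at 0.5 h was lost without 0 h replicate 1 (adjusted p = 0.133) or either 0.5 h array (0.0686 and 0.109), that at 1 h without 0 h replicate 1 (0.13) or 1 h replicate 1 (0.194), and that at 4 h without 0 h replicate 1 (0.0546) or 4 h replicate 2 (0.0587). The call at 1 h was also lost when only the arrays of both times were fitted (0.059), and the change at 12 h passed with an intensity trend and robust prior (0.0475).

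Other ER genes did not all move in step with KAR2. Of the 13 listed folding and unfolded protein response genes, 12 were found under the symbol listed. Whether the array measures the other under another name was not tested. At 0.5 h 3 rose and 5 fell, beside 30.1% and 32.7% of all genes. Their median log2 change was -0.14, beside -0.05 over all genes. With 12 genes these shares do not set the list apart from other genes. MPD1, a protein disulfide isomerase family member, averaged 642 at 0.5 h against 130 at 0 h (log2 change 2.32, limma adjusted p = 1.67e-05), and PDI1, the main isomerase, rose by 0.60. DER1, a component of ER-associated degradation, rose by 0.51. ERO1, the oxidase that drives disulfide formation, fell by 1.22, CNE1, the yeast calnexin, by 0.92, and HAC1, whose spliced mRNA encodes the transcription factor of the unfolded protein response, by 1.12. Unspliced and spliced HAC1 mRNA were not distinguished here. LHS1, an Hsp70-related exchange factor of the ER, changed by 0.07 (adjusted p = 0.744).

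The Hsp110 genes SSE1 and SSE2 encode exchange factors for Ssa and Ssb that also hold unfolded substrates. SSE1, the main form, had 2742 and 3230 at 0 h, 2026 and 2719 at 0.5 h, 2073 and 1864 at 1 h, 2913 and 2932 at 4 h, and 2742 and 2726 at 12 h. All 4 arrays of 0.5 and 1 h were below both 0 h arrays, and the 4 h arrays lay between those of 0 h. SSE1 changed by -0.34 at 0.5 h (limma adjusted p = 0.12), fell by 0.60 ± 0.18 at 1 h (adjusted p = 0.0152) and rose by 0.57 at 4 h against 1 h (adjusted p = 0.0419). The fall at 1 h was lost without 0 h replicate 2 (adjusted p = 0.0957) or 1 h replicate 2 (0.0891), and the change at 0.5 h passed without 0.5 h replicate 2 (0.0433). The rise at 4 h was lost without any 1 array of 1 h or 4 h (0.0826 to 0.204) and under quantile normalization (0.0519).

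SSE2, the minor and stress-inducible form, had 586 and 719 at 0 h, 890 and 1010 at 0.5 h, 742 and 846 at 1 h, 619 and 850 at 4 h, and 646 and 770 at 12 h. The 0.5 h arrays were the highest, and those of 4 and 12 h overlapped 0 h. SSE2 rose by 0.55 ± 0.20 at 0.5 h (limma adjusted p = 0.0389), and its changes of 0.29, 0.16 and 0.12 at 1, 4 and 12 h did not pass. That call was lost in 5 of 10 fits that left out 1 array: without 0 h replicate 1 (adjusted p = 0.2), 0.5 h replicate 1 (0.0669), 0.5 h replicate 2 (0.17) or either 1 h array (0.0502 each), and also under quantile normalization (0.0565) and median centring (0.0505).

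SSE1 over SSE2 was 0.89 lower at 0.5 h and at 1 h than at 0 h, and 0.19 lower at 4 h, on the log2 scale. The mean of the later arrays differed from that of 0 h by -0.55 (exact permutation p = 0.156, adjusted 0.207), and 4 h replicate 1 was level with the 0 h arrays. Among the other 4 exchange factor genes, FES1, which serves Ssa in the cytosol, rose by 0.67 at 0.5 h (limma adjusted p = 0.00436) and MGE1 rose, whereas SIL1 of the ER fell by 0.57 (adjusted p = 0.029) and SNL1, a membrane-anchored factor, fell by 1.14 (adjusted p = 0.00488). FES1 then fell by 0.79 at 12 h against 4 h.

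J-domain proteins direct Hsp70 to its tasks. Of 22 genes, 8 rose and 8 fell at 0.5 h, shares close to the 30.1% and 32.7% of all genes, with a median log2 change of 0.01. APJ1, a nuclear and cytosolic co-chaperone, rose by 1.81 (limma adjusted p = 0.000138), JID1 by 1.76 and ERJ5 of the ER by 1.12. SIS1, the essential partner of Ssa, had a log2 change of 1.00 at 0.5 h, of 0.92 at 4 h and, without passing, of 0.30 at 12 h.

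The largest falls among J-domain genes were those of JJJ3 (-3.15, limma adjusted p = 2.41e-06), which acts in diphthamide synthesis, JJJ1 (-2.39), which acts with Ssa in late ribosome assembly, and ZUO1. YDJ1, the abundant cytosolic partner of Ssa, fell by 0.73 at 0.5 h (adjusted p = 0.0466) and was near its 0 h level by 4 h, with a change of -0.001.

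Other Hsp70-related genes of the mitochondria did not pass at 0.5 h. ECM10, a mitochondrial paralog of SSC1, and SSQ1, the mitochondrial Hsp70 of iron-sulfur cluster assembly, changed by -0.26 and 0.45 at 0.5 h (limma adjusted p = 0.333 and 0.0921). At 4 h ECM10 fell by 0.79. With SSZ1 and LHS1 counted, 0 of these 4 rose at 0.5 h and 1 fell, beside 30.1% and 32.7% of all genes. With 4 genes these shares do not set the list apart from other genes.

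Genes outside the family that are known targets of the heat shock transcription factor Hsf1 mostly rose. Of the 19 measured, 15 rose and 1 fell at 0.5 h. At 4 h 14 rose and at 12 h 8 rose, with 0 falls at both times. Among all genes 30.1%, 19.4% and 21.4% were called higher at 0.5, 4 and 12 h, and 32.7%, 23.2% and 22.0% lower. The median log2 change of the 19 stood at 1.04 after 0.5 h, 0.83 after 4 h and 0.44 after 12 h. Over all genes it was -0.05, -0.09 and -0.05. HSP42, a small heat shock protein, rose by 2.68 (limma adjusted p = 1.46e-05), CPR6, a cyclophilin that works with Hsp90, by 1.98, and HSP82, the inducible Hsp90, by 1.84. HSP104, the disaggregase that works with Ssa, rose by 0.98 at 0.5 h and differed by 0.06 at 12 h. The gene that fell was YDJ1. HSP60, HSP10, HSP78 and MDJ1 are also among the partners of Ssc1 listed above. SIS1, YDJ1, APJ1 and MDJ1 are also among the J-domain genes and FES1 among the exchange factors, so the lists are not separate groups. The list of Hsf1 targets was written from general knowledge. Among the Ssa genes, which it leaves out, SSA1 and SSA3 rose at 0.5 h and SSA2 fell. SSA4, itself a target of Hsf1, was not among those that rose.

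Transcripts of the stress regulators did not share a direction at 0.5 h. Of 7, 2 rose and 3 fell then, beside 30.1% and 32.7% of all genes. At 12 h 0 rose and 5 fell, beside 21.4% and 22.0%, with a median log2 change of -0.60 beside -0.05 over all genes. GIS1, a regulator of genes used after glucose is exhausted, rose by 2.05 at 0.5 h (limma adjusted p = 0.000375) and YAP1, the oxidative stress factor, by 0.59. MSN4, a general stress factor, fell by 1.61, SKN7, which acts in the oxidative stress response, by 0.71, and HAC1 as given above. HSF1 itself changed by -0.25 at 0.5 h without passing and fell by 0.60 at 12 h (adjusted p = 0.0198), and MSN2 changed by 0.13 at 0.5 h and fell by 0.65 at 12 h (adjusted p = 0.00761).

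**Figure D4:**
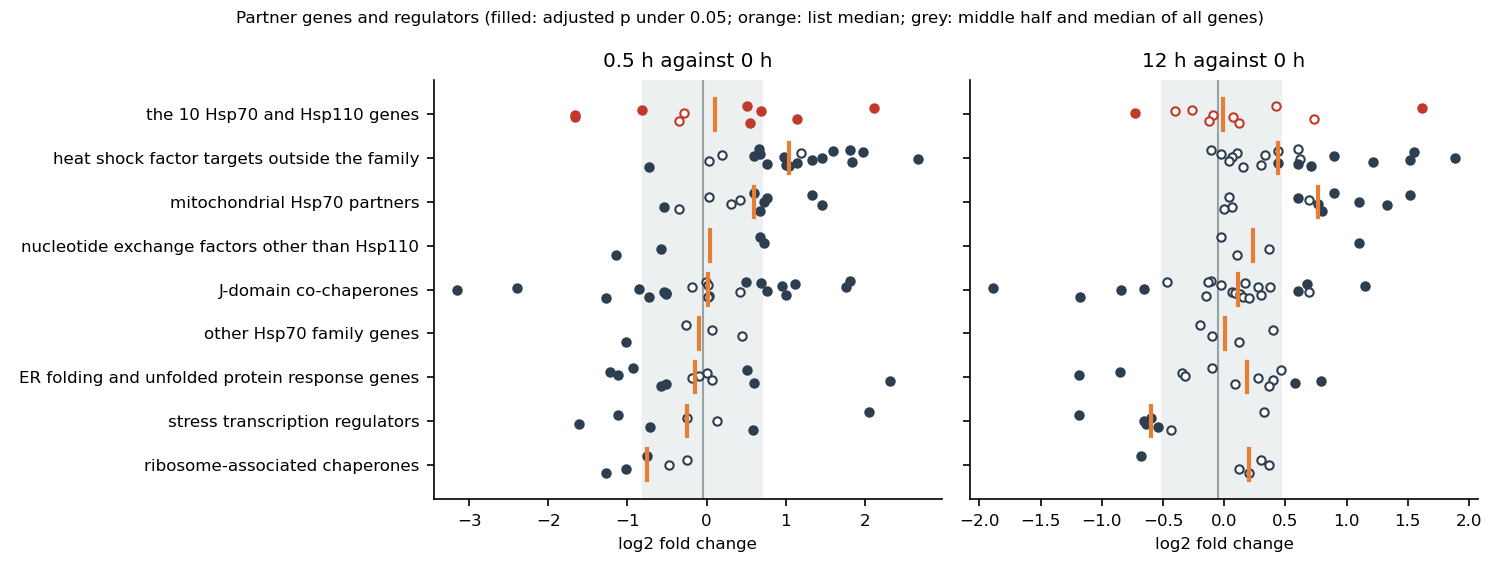
Log2 fold change at 0.5 h (left) and 12 h (right) against 0 h of the 10 genes (red) and of the genes in each partner list, filled for a limma adjusted p under 0.05, with list medians in orange and the middle 50% and median of all 5449 genes in grey; both axes are linear and differ in range. The Hsf1 targets have a median of 1.04 at 0.5 h and 0.44 at 12 h, and the mitochondrial partners, some of which are in both lists, 0.60 and 0.77.

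Over the 10 arrays the genes fell into groups by Pearson's r of log2 intensity, given as a description because the arrays of a time are not independent of each other. SSB1 and SSB2 were the closest pair (r = 0.992), followed by SSA2 and SSE1 (0.939), SSA1 and SSC1 (0.917) and SSA1 and KAR2 (0.899). SSB1 stands here on its shared probe set, part of whose signal may belong to SSB2. No r was taken with the unshared set, so this value cannot show how alike the 2 transcripts were. SSA2, SSE1, SSB1 and SSB2 were all related at 0.803 or more, and 8 of the 45 pairs were over 0.8. SSA1 and SSA2, near-identical in protein, had r = -0.435. The lowest value was between SSA3 and SSB1 (-0.795).

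**Figure D5:**
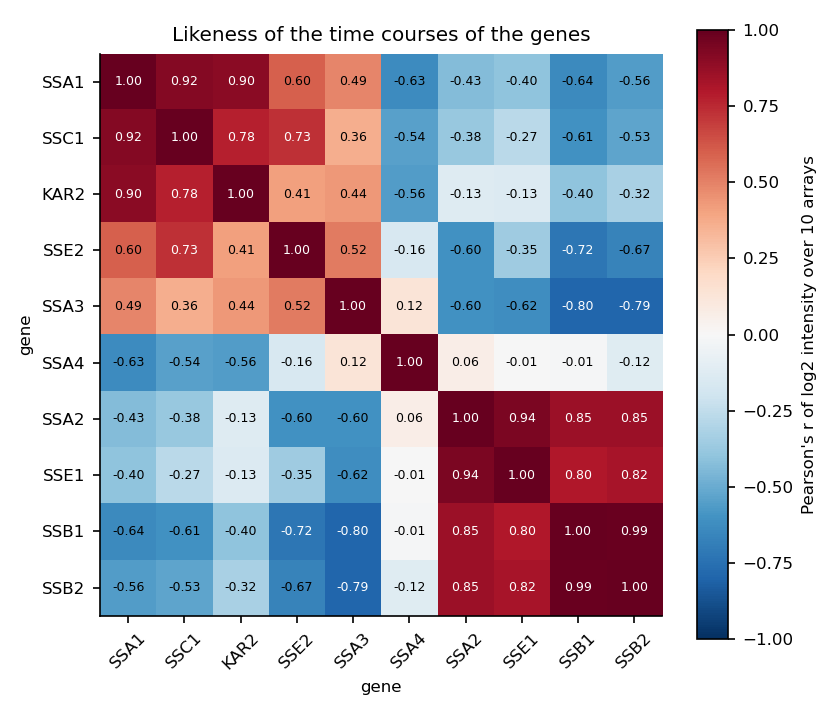
Pearson's r of log2 intensity between the 10 genes over 10 arrays, from -1 (blue) to 1 (red), with SSB1 on its shared probe set. A block of SSA2, SSE1, SSB1 and SSB2 holds values of 0.80 to 0.99, and another of SSA1, SSC1 and KAR2 holds 0.78 to 0.92. Among the other 9 genes SSA4 has its highest value with SSA3, at 0.125, and its lowest with SSA1, at -0.626.

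Among 2356 genes with an SD of at least 0.5 over the arrays, the ones most like SSA1 were COX4, a cytochrome oxidase subunit (r = 0.992), ERV29, a cargo receptor of ER vesicles (0.985), and QCR9, a subunit of the cytochrome bc1 complex (0.984). SSC1 was most like COX4 (0.947), COX7 (0.945) and PET123 (0.928). SSB1, on its shared probe set, was most like REA1, REX4 and NOP56 (0.998 each), and SSB2 like NOP56, PPT1 (0.994 each) and NSA1 (0.993).

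SSA2 was most like DIM1 (0.948), YAR1 (0.941) and NCS2 (0.931), SSA3 like GCY1 (0.953), SPS100 (0.940) and NVJ1 (0.933), and SSA4 like DAL4 (0.963), SPR1 (0.963) and AQY2 (0.957). KAR2 was most like HSP82 (0.904), CPR6 (0.899) and VBA3 (0.899). SSE1 had SSA2 as its nearest gene (0.939), then MET6 (0.888) and TPN1 (0.887), and SSE2 was nearest to TMC1 (0.916), RMD5 (0.899) and PUN1 (0.887). The nearest gene of each member was thus reached at an r of 0.904 to 0.998. Each is the highest value in a screen of 2356 genes over 10 arrays at 5 times, so a high r says little by itself. SSA4, SSC1, KAR2, SSE1 and SSE2 had SDs of 0.25 to 0.499, under the limit set for the screened genes. Genes as flat as these members were therefore not among the candidates.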

How the data were processed

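Total RNA from the pool was reverse transcribed from oligo(dT), labelled with biotin and hybridised to 10 Affymetrix arrays. The authors read the arrays with MAS 5.0 and then adjusted background, normalized and summarized probe sets with RMA from BioConductor. The deposited values are RMA intensity on a linear scale, and versions of these tools are not given in the sources used here. All columns of the table were used. The 1 h time stands in the labels and not among the harvest times of the methods, and the labels were followed. The number of arrays limits the precision.

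Of 5716 probe sets, 5498 carried 1 symbol in the platform annotation, 12 of them renamed from the RefSeq gene table (assembly R64), and 218 carried none. The probe set with the highest mean log2 intensity was kept per gene (5449 genes, 49 sets put aside, and 115 genes on a set marked as shared). Log2 intensity was fitted without a filter in limma 3.58.1 (R 4.3.3) with 5 groups and 6 contrasts, which left 5 residual degrees of freedom beside 4.33 from the prior, whose SD was 0.197. Benjamini-Hochberg adjustment ran over all genes of a contrast with a threshold of 0.05. The code was tested on simulated data. Paralog ratios were compared by an exact permutation test, adjusted over 4 pairs. Further steps used Python 3.11.15 with numpy 2.4.6, pandas 2.3.3 and matplotlib 3.10.9.

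The text names all 10 members, the 3 genes most like each, every gene of lists of 5 or fewer and, in longer lists, up to 3 of the largest rises and 3 of the largest falls past the threshold at 0.5 h. SIS1, TIM44, HSP104, RPP1, HSF1 and MSN2 were named in addition after their values were seen. HXT1 and ADH2 come from a list of carbon source genes. The members, lists and tests were chosen with earlier results of these data known. Promoter and protein sequences were not analysed here.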

Additional observations from a re-analysis of the deposited data

How the results depend on the processing

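Of 28 calls among the 60 tests of the 10 genes, 12 were kept in all 10 fits that left out 1 array and under all 9 other settings: SSA1 at every time against 0 h, SSB1 and SSB2 at 0.5 and 1 h and at 4 h against 1 h, SSC1 at 0.5 h and SSA2 at 1 h. Under the 9 other settings, 526 of the values for single genes kept their direction and side of the threshold, 8 newly passed, 5 no longer passed and 1 changed sign, SSB2 at 12 h under quantile normalization (-0.023). Leaving out 1 array, 534 were kept, 6 newly passed, 45 no longer passed and 15 changed sign, none of them a call. Over these fits the changes that switched sign ranged from -0.107 to 0.162 for SSA2, -0.144 to 0.092 for SSE1 and -0.069 to 0.389 for SSE2 at 4 h against 0 h, and -0.262 to 0.085 for SSB1, -0.141 to 0.278 for SSB2 and -0.028 to 0.267 for SSE2 at 12 h against 0 h. They were -0.761 to 0.015 for SSA3, -0.342 to 0.056 for SSA4 and -0.356 to 0.102 for SSE2 at 4 h against 1 h, and -0.792 to 0.167 for SSC1 and -0.27 to 0.188 for SSE2 at 12 h against 4 h.

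The number of the 10 genes called ranged over these fits from 4 to 8 at 0.5 h, 1 to 5 at 4 h and 1 to 2 at 12 h against 0 h, 2 to 4 at 4 h against 1 h and 0 to 1 at 12 h against 4 h. Over all genes it ranged from 1383 to 2452 at 4 h against 0 h, 479 to 1608 at 4 h against 1 h and 258 to 668 at 12 h against 4 h. An intensity trend with a robust prior called 4 of the 10 genes at 12 h against 0 h, where it called 2392 of all 5449 genes. Fitting only the arrays of both times called 0 of the 10, and 353 of all genes, at 12 h against 4 h, where the fit reported called 617. Of those 617, 372 were higher and 245 lower, whereas quantile normalization called 369 higher and 316 lower. The replicate block called 2 of the 10 and 1066 of all genes there, and with it SSA1 passed at 12 h against 4 h (adjusted p = 0.0366), SSC1 at 12 h (0.0136) and SSA4 at 1 h (0.0302) against 0 h. Nothing in the labels says that equal replicate numbers pair arrays across times. The differences between replicates 1 and 2 correlated positively in all 10 pairs of times, at 0.0267 to 0.5647 and over 0.1 in 8, so a partial pairing is possible and the arrays were not treated as paired.

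The change in SSA1 over SSA2 reached an adjusted p of 0.0444 with quantile normalization (2.40) and with 16 added before log2 (2.51). It also did with the mean of probe sets or the unshared set, where the change itself was the same as that reported above (2.52 each). SSA3 over SSA4 did so with the first 2 of these (0.98 and 0.95), and SSB1 over SSB2 with the others (-0.363 and -0.634). Leaving out 1 array, SSB1 over SSB2 ranged from -0.21 to 0.027. The p of SSA1 over SSA2 before adjustment was already 0.0222, the smallest the exact permutation test allows. Under these settings its adjusted p moved only because another pair reached a small p too, as the pairs are adjusted together. Otherwise the cause of these differences was not tested.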
